A study of Oryza sativa with 12 samples.

Results

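The genes described here are those that NaCl lowered in the shoots of the rice cultivar Tainung 67 and that were already low, without NaCl, in shoots overexpressing *OsERF106MZ* (OE). Each gene is represented by an array probe, and 266 of the 42477 probes on the array were members. A member had to be well above background on all 12 arrays, which 31924 probes were. In the normalized log2 values that the authors deposited, it also had to be lower by at least 0.8 in OE than in Tainung 67 without NaCl and lower by at least 0.8 in Tainung 67 with NaCl than without, in each of the 3 pairs of arrays with the same replicate number. The first condition was met by 892 probes and the second by 1534. Both differences are taken from the same 3 arrays of Tainung 67 without NaCl, so both conditions select probes that read high on those arrays.

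Ethylene-responsive factors (ERFs) are plant transcription factors that bind DNA through an AP2/ERF domain, many of them at the GCC box, and they act downstream of ethylene and in responses to drought, cold, pathogens and salt. Salt slows the growth of rice shoots, first because water becomes harder to take up and later because Na+ builds up in the leaves, and seedlings are a sensitive stage. Part of the transcriptional response to salt is the lowering of genes used in growth and metabolism.

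Seedlings were grown for 7 days and then kept for 1 day with 0 or 150 mM NaCl, so that all were 8 days old, and RNA from whole shoots was labelled with Cy3 and hybridized to Agilent rice arrays of 1 colour. Shoots of both genotypes were compared with and without NaCl to follow the response to salinity. The 4 groups of 3 arrays were Tainung 67 at 0 mM NaCl, Tainung 67 at 150 mM NaCl, OE at 0 mM NaCl and OE at 150 mM NaCl. Both genotypes have the *japonica* Tainung 67 background. OE carries *OsERF106MZ* under the CaMV 35S promoter, which is active in most cells of the plant, and the labels do not say whether the line with the plain protein or the line with a GFP fusion was used. In whole shoots, fewer cells of a type and less RNA per cell cannot be told apart. The labels speak of 3 biological repeats, while the methods speak of pooled cRNA, so the p-values below measure the spread between arrays, part of which may be technical.

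The arrays lay on 3 slides, slide 1 with replicates 1 and 3 of both Tainung 67 groups, slide 2 with replicates 1 and 3 of both OE groups, and slide 3 with replicate 2 of all 4 groups. NaCl and control arrays of the same number therefore always shared a slide, whereas OE and Tainung 67 shared one only in replicate 2. Within a group, replicates 1 and 3 correlated at 0.9925 to 0.996 across probes and either of them with replicate 2 at 0.9649 to 0.9826. The median spot signal was 315.5 to 814.5 over a local background of 44 to 50, between 79.3% and 88% of probes were well above background, and no spot was saturated. All 266 members passed the filter on dim probes, and LOC_Os02g16500 and LOC_Os02g48360 have no value on 2 and 1 of the replicate 2 arrays without NaCl. The tissue label was not checked against marker genes, because no table used here pairs probes with such genes.

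A rice locus could be given to 90 members through the authors' lists of differentially expressed genes (DEGs), 74 by probe and 16 by the fold changes listed for the locus. The other 176 have a probe name only. The list by probe that was used here ended on chromosome 5, and the named loci lie mostly on chromosomes 1 to 5, with 22 on chromosome 1, 16 on chromosome 2, 22 on chromosome 3, 10 on chromosome 4, 5 on chromosome 5, 1 on chromosome 6, 5 on chromosome 7, 1 on chromosome 8, 4 on chromosome 10 and 4 on chromosome 11. The copies of these lists used here give no gene product, so no function is given to a locus below. No locus had more than 1 member probe. However, 56 pairs of member probes read within 0.5 of each other on the log2 scale on all 12 arrays, and whether such probes share a transcript was not tested.

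The values that chose the members are given first, as a description. OE minus Tainung 67 at 0 mM NaCl had a median over the members of −1.48 in pair 1, −1.33 in pair 2 and −2.42 in pair 3 in the deposited log2 values. NaCl minus control in Tainung 67 had medians of −1.53, −2.56 and −1.34. Pair 3 was thus the lowest for overexpression and pair 2 the lowest for NaCl. Nearest to the threshold, the highest of the 6 differences was −0.8006 for the probe CUST_34120_Rice4x44kGene and −0.8007 for CUST_570_Rice4x44kGene inside it, and −0.7983 for CUST_39102_Rice4x44kGene and −0.7953 for LOC_Os01g52490 outside it.

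All further levels are log2 signals after background correction and quantile normalization, given for replicates 1, 2 and 3 in that order. Relative to the mean of Tainung 67 at 0 mM NaCl, the median member read 0.01, −0.04 and 0.03 on the 3 arrays of that group. With 150 mM NaCl it read −1.48, −2.25 and −1.25 in Tainung 67. In OE it read −1.4, −1.32 and −2.12 without NaCl and −2.28, −2.07 and −2.56 with NaCl. Replicate 2 of NaCl-treated Tainung 67 and replicate 3 of untreated OE stood lower than the other 2 arrays of their groups, and both lay within the range of NaCl-treated OE, from −2.56 to −2.07.

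**Figure D1:**
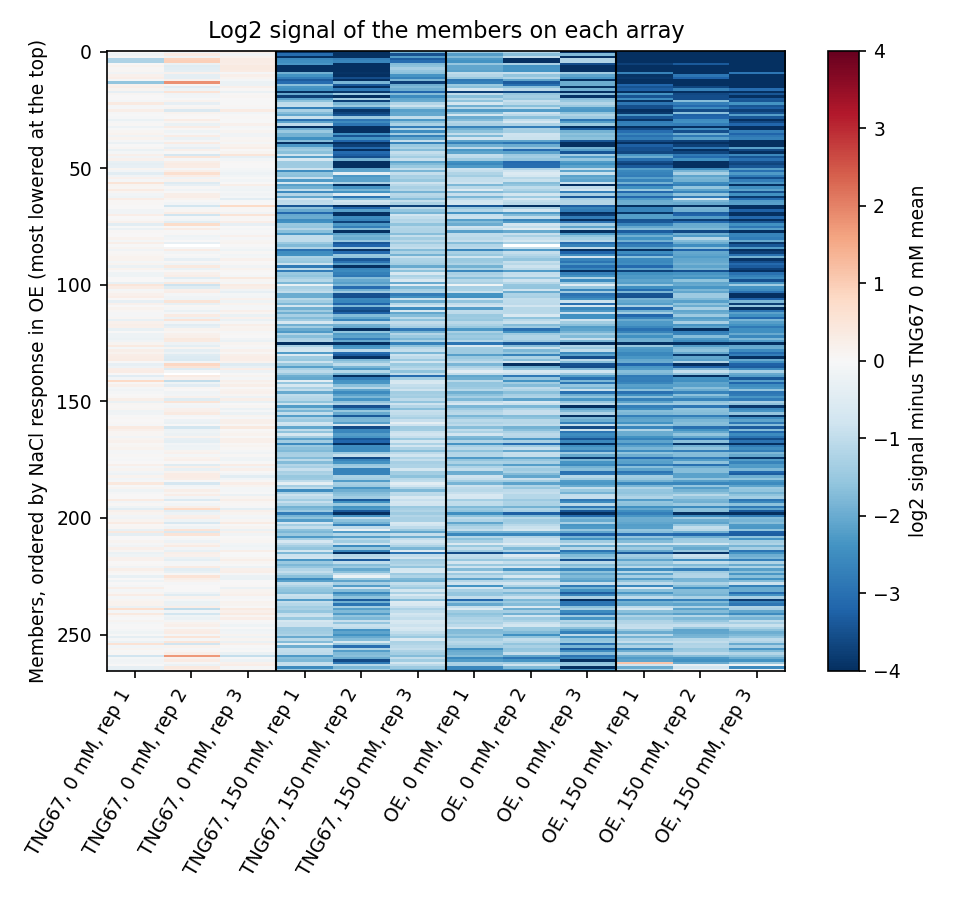
Log2 signal of each of the 266 members (lines, ordered by the NaCl response in OE) on each of the 12 arrays (columns), as the difference from the mean of Tainung 67 at 0 mM NaCl, with the colour scale held at 4 in both directions and missing values in white. The median member read −2.28, −2.07 and −2.56 on the 3 arrays of OE with NaCl, and replicate 2 of Tainung 67 with NaCl (−2.25) and replicate 3 of OE without (−2.12) are the darkest columns of their groups.

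By group means, OE with NaCl was the lowest of the 4 groups for most members. The rule took no difference from its arrays and only required them to be above background. OE and Tainung 67 shared a slide only in replicate 2, so genotype and slide are mixed in these means. On that slide the median member read −2.07 in OE with NaCl and −2.25 in Tainung 67 with NaCl, the array that stood low in its group. The mean of OE at 150 mM NaCl was the lowest in 234 of the 266 members, that of OE at 0 mM NaCl in 17 and that of NaCl-treated Tainung 67 in 15. The order from high to low was Tainung 67 without NaCl, OE without NaCl, Tainung 67 with NaCl and OE with NaCl in 131 members, and with the 2 middle groups exchanged in 103. With both arrays that stood apart left out, OE with NaCl was the lowest in 241 members, and these 2 orders held in 111 and 130, so that the more frequent order turned. NaCl-treated OE lay below untreated Tainung 67 in all 3 pairs of arrays in 263 members (98.9%), against 39.2% of all tested probes. Since the rule required high values in untreated Tainung 67, this count is a description.

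NaCl lowered a part of the members further in OE, where they were already low, and raised 1 of them. The median member changed by −0.72 on the log2 scale between 0 and 150 mM NaCl in OE (quartiles −1.03 and −0.39), with 247 of 266 below 0, and all 37144 tested probes had a median of −0.06 with 54.6% below 0. At a Benjamini-Hochberg adjusted p under 0.05 in limma and a change of more than 2-fold, 34 members (12.8%) were lowered, against 3.64% of all tested probes, and 1 member (0.376%) was raised, against 6.18%. The 3 arrays with NaCl lay below the 3 without in 86 members (32.3%, against 22.8% of all tested probes) and above them in 3 (1.13%, against 21.7%). The untreated OE arrays in this comparison were chosen low by the rule. The fold changes of the 34 lowered members ran from −3.19 to −1.04 with a median of −1.6, and their adjusted p from 0.000135 to 0.0431.

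The number of members lowered by NaCl in OE moved with single arrays. It was 58 without replicate 3 of untreated OE, the array that stood low, against 3.68% of all tested probes. Without replicate 1 of that group it was 20 (2.79% of all tested probes) and without replicate 3 of NaCl-treated OE 17 (3.01%). With both arrays that stood apart left out, it was 96, against 4.59% of all tested probes. Those arrays were singled out as low in these members, and leaving out the low one of untreated OE favours larger drops. The median member changed by −0.91, −0.76 and −0.48 in pairs 1, 2 and 3, each within a slide, and 196 members (73.7%) were below 0 in all 3 pairs, against 39.4% of all tested probes.

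**Figure D2:**
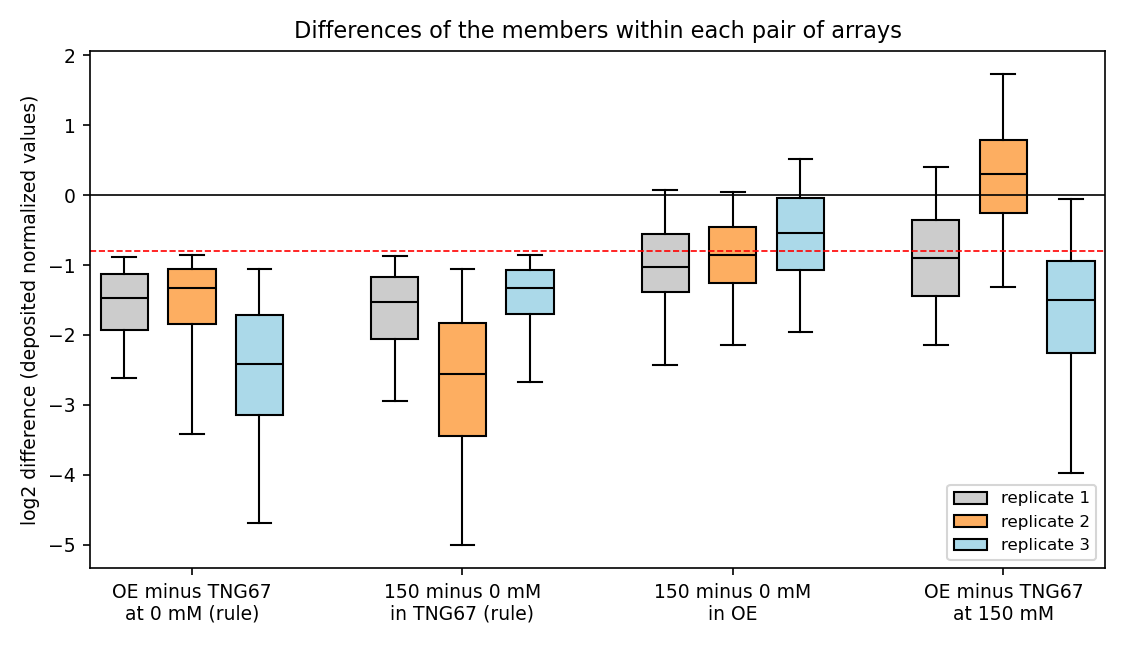
Log2 differences of the 266 members in the deposited normalized values, by comparison and by pair of arrays with the same replicate number (grey, replicate 1; orange, replicate 2; blue, replicate 3). Boxes give the median and quartiles, whiskers the 5th and 95th percentiles and the dashed line the rule's threshold of −0.8. The 2 comparisons on the left chose the members, and in the comparison on the right pair 2, whose arrays share a slide, lies above 0 at its median while pairs 1 and 3 lie below.

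A locus could be given to 13 of the 34 lowered members, and LOC_Os10g39130 had the smallest adjusted p among them. LOC_Os10g39130 read 11.19, 11.32 and 11.32 in Tainung 67 without NaCl and 10.34, 9.79 and 10.43 with it, and in OE it read 9.37, 9.6 and 9.79 without NaCl and 7.76, 8.17 and 7.85 with it. Its 3 OE arrays with NaCl were the lowest of the 12 and overlapped no other group. NaCl changed it by −1.66 ± 0.19 (SE, n = 3 per group) in OE, with an adjusted p of 0.000317 in limma. An unnamed probe, CUST_10950_Rice4x44kGene, followed it within 0.42 on all arrays.

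LOC_Os11g05290 read 12.98, 12.97 and 13 in untreated Tainung 67 and 10.87, 11.62 and 10.91 with NaCl. In OE it read 11.85, 11.51 and 11.29 without NaCl and 10.51, 9.43 and 9.62 with it. The 2 single changes thus overlapped with each other, while the OE arrays with NaCl lay below all others. The change by NaCl in OE was −1.69 ± 0.29 (adjusted p = 0.00207, limma). LOC_Os04g11400 read 12.35, 12.14 and 12.08 in untreated Tainung 67, 11.53, 10.29 and 11.27 with NaCl, 10.78, 10.62 and 10.65 in untreated OE and 9.2, 9.78 and 9.18 in OE with NaCl. Here replicate 2 of NaCl-treated Tainung 67 was lower than untreated OE, and OE with NaCl was again below every other array. It changed by −1.29 ± 0.28 in OE (adjusted p = 0.00769, limma). The probe without a locus that changed most among the 34, CUST_20767_Rice4x44kGene, was chosen after its values were seen. It read 11.55, 12.05 and 11.57, then 8.65, 7.64 and 8.25 in Tainung 67, and 9.53, 10.01 and 9.94, then 6.91, 6.94 and 6.05 in OE, without and with NaCl. NaCl lowered it in both genotypes with no overlap of arrays, by −3.19 ± 0.3 in OE (adjusted p = 0.000135, limma).

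LOC_Os07g25060 and LOC_Os07g24830 were among the most lowered named loci and tracked each other within 0.49 on all arrays. LOC_Os07g25060 read 11.88, 13.99 and 13.41 in untreated Tainung 67, 10.53, 10.38 and 9.81 with NaCl, 10.84, 8.88 and 11.91 in untreated OE and 8.35, 7.64 and 8.4 in OE with NaCl. Replicate 2 of untreated OE lay below all NaCl arrays of Tainung 67, and the OE arrays with NaCl lay below it. NaCl changed the 2 loci in OE by −2.42 ± 0.7 (adjusted p = 0.0273) and −2.35 ± 0.73 (adjusted p = 0.0365, both limma). LOC_Os07g24820, next to LOC_Os07g24830 by its locus number, changed by −1.9 ± 0.75 and missed the threshold (adjusted p = 0.0874), but passed with the slide as a block. In all 3 loci replicate 2 of untreated Tainung 67 was the highest of the 12 arrays, at 13.99, 14.27 and 11.83.

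The other loci lowered by NaCl in OE were LOC_Os01g70970, LOC_Os03g04220, LOC_Os11g13750, LOC_Os03g38640, LOC_Os03g49610, LOC_Os04g44354, LOC_Os02g54190 and LOC_Os01g46290, with fold changes from −2.06 to −1.07 and adjusted p from 0.0102 to 0.0366. In LOC_Os01g70970 the OE arrays read 8.3, 7.88 and 7.35 without NaCl and 5.53, 6.56 and 5.25 with it, while the Tainung 67 arrays with NaCl read 7.08, 5.29 and 7.11. The NaCl arrays of both genotypes overlapped, and those of OE lay below all untreated OE arrays. LOC_Os02g54190 read 9.11, 9.24 and 8.43 in untreated OE and 7.47, 8.08 and 6.88 with NaCl, and Tainung 67 with NaCl read 8.19, 7.64 and 8.71, so that these groups overlapped. LOC_Os05g07680 and LOC_Os01g68720 had small adjusted p in limma (0.00531 and 0.00572) but changed by less than 2-fold, by −0.61 ± 0.12 and −0.9 ± 0.19, and were not counted.

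**Figure D3:**
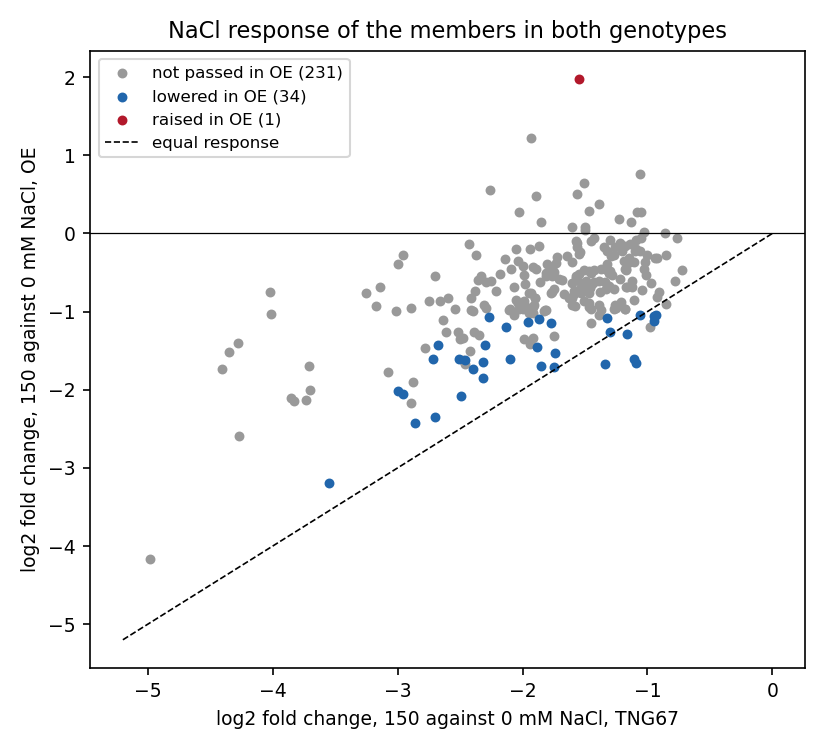
Log2 fold change between 0 and 150 mM NaCl in Tainung 67 (horizontal axis, used by the rule) and in OE (vertical axis) for each of the 266 members, with members lowered in OE in blue (34), raised in red (1) and not past the threshold in grey (231). Points above the dashed line, where both responses are equal, had a smaller drop or a rise in OE. There lie 257 members, of which 238 dropped in OE.

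The drop by NaCl was smaller in OE than in Tainung 67 for most members, by an amount that depended on the arrays that stood apart. The median member changed by −1.69 in Tainung 67 and by −0.72 in OE, and the difference between these responses was above 0 in 257 members with a median of 1. Since the rule used 3 of the 4 groups in this difference, it is a description without a test. The rule chose untreated Tainung 67 high, and NaCl-treated Tainung 67 and untreated OE low, which favours a difference above 0. Over all tested probes the difference had a median of −0.03, with 54% below 0. In 238 members the OE response was below 0 and smaller than that of Tainung 67. With both arrays that stood apart left out, the median responses were −1.4 in Tainung 67 and −0.93 in OE, the difference was above 0 in 207 members with a median of 0.41, and 195 had a smaller response below 0 in OE. The 9 members in which it was larger in OE included LOC_Os10g39130, where the difference of responses was −0.57, and LOC_Os04g11400, where it was −0.14.

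Probes lowered by only one of the 2 conditions had other values, which are given for reference with no test of the difference. Among the 1268 probes lowered by NaCl in Tainung 67 but not by overexpression at the same threshold, the median response to NaCl in OE was −1.03, and 541 (42.7%) were lowered. Among the 626 lowered by overexpression but not by NaCl in Tainung 67, it was 0.12, with 8 (1.28%) lowered and 43 (6.87%) raised. The members' median of −0.72 thus lay between those of both sets. The difference between the responses of OE and Tainung 67 had a median of 0.2 in the 1268 probes and of 0.49 in the 626.

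At 150 mM NaCl, the median member read lower in OE than in Tainung 67 in 2 of the 3 pairs of arrays and not in the third. It differed by −0.73 in pair 1, by 0.2 in pair 2 and by −1.31 in pair 3. Of the 266 members, 225, 102 and 247 were below 0 in the 3 pairs, and 85 in all 3, against 23.9% of all tested probes in all 3. Pair 2 is the pair within a slide and holds the low array of NaCl-treated Tainung 67, so that genotype and slide cannot be told apart in the other 2 pairs. Over all arrays the median was −0.67 (quartiles −0.98 and −0.33), with 243 members below 0, but with the slide as a fixed block it was −0.05 and with the slide as a random block −0.27. It was −0.94 without replicate 2 of NaCl-treated Tainung 67.

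In the same fit, 20 members (7.52%) were lowered in OE at 150 mM NaCl and 1 (0.376%) was raised, against 1.42% and 1.93% of all tested probes. Lower readings in OE were not particular to the members. Of the 626 probes lowered by overexpression but not by NaCl in Tainung 67, 145 (23.2%) were lowered here, with a median of −0.72. Of the 1268 lowered by NaCl in Tainung 67 but not by overexpression, 8 (0.631%) were, with a median of −0.03. The arrays of both genotypes did not overlap in 60 members with OE lower (22.6%, against 12.3%) and in 5 with OE higher (1.88%, against 11.1%). The Tainung 67 arrays in this comparison were chosen low by the rule, and the OE arrays are those of the preceding comparison. The count of 20 was 13 with the slide as a fixed block, against 1.14% of all tested probes. It was 54 without replicate 2 of NaCl-treated Tainung 67, against 3.04%. Without replicate 1 of NaCl-treated OE it was 10 (0.843% of all tested probes) and without replicate 3 of that group 7 (0.864%). It was also 7 without replicate 1 or without replicate 3 of NaCl-treated Tainung 67 (0.84% and 1.05%). With both arrays that stood apart left out it was 81, against 3.03% of all tested probes. Leaving out the low array of NaCl-treated Tainung 67, the reference here, favours more calls.

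**Figure D4:**
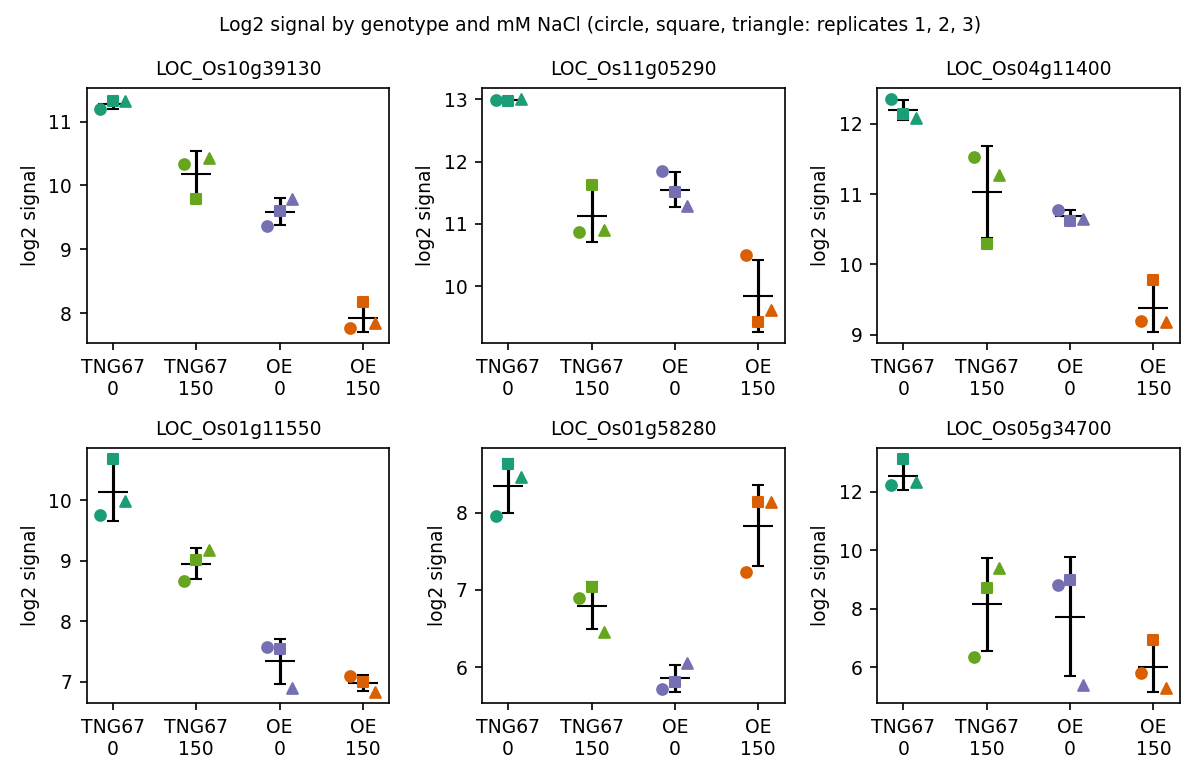
Log2 signal of 6 members in each group (Tainung 67 or OE with 0 or 150 mM NaCl), with a circle, square and triangle for replicates 1, 2 and 3, and the mean and SD of the 3 arrays as lines. Each panel has its own vertical scale, which does not start at 0. In LOC_Os10g39130, LOC_Os11g05290 and LOC_Os04g11400 the 3 arrays of OE with NaCl are the lowest, in LOC_Os01g11550 both OE groups are low, in LOC_Os01g58280 OE with NaCl lies above OE without, and in LOC_Os05g34700 the 3 lowered groups overlap.

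The 8 named loci among the 20 were LOC_Os10g39130, LOC_Os11g05290, LOC_Os04g11400, LOC_Os01g11550, LOC_Os08g43350, LOC_Os03g59300, LOC_Os11g01830 and LOC_Os01g59410. Of these, LOC_Os10g39130, LOC_Os11g05290 and LOC_Os08g43350 were named through the authors' list of genes called at both NaCl levels. That list had already selected them for a difference between genotypes at 150 mM NaCl on these arrays. With the levels given above, LOC_Os10g39130 differed between OE and Tainung 67 at 150 mM NaCl by −2.26 ± 0.19 (adjusted p = 0.000151 in limma), LOC_Os04g11400 by −1.64 ± 0.28 (adjusted p = 0.00826) and LOC_Os11g05290 by −1.28 ± 0.29 (adjusted p = 0.0263). With the slide as a fixed block LOC_Os04g11400 differed by −1.08 and no longer passed. LOC_Os11g05290 was lost when replicate 1 or 3 of NaCl-treated Tainung 67, or replicate 2 or 3 of NaCl-treated OE, was left out, at values between −1.41 and −1.07.

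In LOC_Os01g11550 the genotypes stood apart whether or not NaCl was given. It read 9.76, 10.68 and 9.99 in Tainung 67 without NaCl and 8.67, 9.01 and 9.18 with it, and 7.57, 7.54 and 6.9 in OE without NaCl and 7.1, 7 and 6.84 with it. All 6 OE arrays lay below all 6 Tainung 67 arrays, and within OE the 2 groups overlapped. The genotypes differed by −1.97 ± 0.26 at 150 mM NaCl (adjusted p = 0.00203, limma), and NaCl changed it by −0.35 ± 0.26 in OE (adjusted p = 0.345). LOC_Os08g43350 read 10.08, 9.39 and 10.17, then 8.71, 8.35 and 8.63 in Tainung 67, and 8.12, 7.68 and 7.38, then 7.14, 6.9 and 7.65 in OE, without and with NaCl. OE was below Tainung 67 with no overlap at 150 mM NaCl, by −1.34 ± 0.27 (adjusted p = 0.0164, limma), while its own 2 groups overlapped. This call was lost with the slide as a fixed block (−1.17), and when replicate 1 or 3 of NaCl-treated Tainung 67 (−1.26 and −1.3) or replicate 1 of NaCl-treated OE (−1.29) was left out. In LOC_Os03g59300, read almost identically by CUST_34161_Rice4x44kGene (within 0.09 on all arrays), Tainung 67 with NaCl read 11.57, 10.14 and 12.3 and OE with NaCl 9.62, 9.59 and 8.81, a difference of −1.99 ± 0.5 (adjusted p = 0.0419, limma). The genotypes were closest in replicate 2, the only pair within a slide, at 10.14 and 9.59.

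The 10 named loci with the largest values of the rule had adjusted p from 0.0874 to 0.878 for NaCl in OE and from 0.111 to 0.844 for OE against Tainung 67 at 150 mM NaCl (limma). LOC_Os05g34700 had the largest mean of the 6 differences among named loci and read 12.22, 13.11 and 12.32 in untreated Tainung 67, 6.33, 8.7 and 9.39 with NaCl, 8.81, 8.98 and 5.38 in untreated OE and 5.8, 6.91 and 5.28 in OE with NaCl. The 3 lowered groups overlapped, with untreated OE spread from 5.38 to 8.98. NaCl changed it by −1.73 ± 0.98 in OE (adjusted p = 0.222, limma) and OE differed from Tainung 67 at 150 mM NaCl by −2.14 ± 0.98 (adjusted p = 0.225). Without replicate 3 of untreated OE the NaCl change was −2.9 and passed the threshold. That array was singled out as low in the members, so leaving it out favours a larger drop.

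LOC_Os02g57110 was one of the brightest members, at 14.94, 14.32 and 15.15 in untreated Tainung 67. It read 10.17, 9.58 and 13.15 there with NaCl, 12.71, 12.42 and 8.66 in untreated OE and 10.2, 9.22 and 7.92 in OE with NaCl. Replicate 3 of untreated OE was again the lowest of its group, and the change by NaCl in OE, −2.15 ± 1.13 (adjusted p = 0.19, limma), was −3.45 and passed without it. Probes CUST_19171_Rice4x44kGene and CUST_30289_Rice4x44kGene, neither with a locus, read within 0.31 and 0.22 of this locus on every array. LOC_Os01g14850 read 14.47, 14.7 and 14.47 in untreated Tainung 67, 11.2, 8.6 and 12.74 with NaCl, 11.67, 12.47 and 9.92 in untreated OE and 10.08, 10.14 and 7.83 in OE with NaCl. Its lowered groups overlapped too, and NaCl changed it in OE by −2 ± 0.99 (adjusted p = 0.165, limma). With both arrays that stood apart left out, this change was −2.72 and the difference between genotypes at 150 mM NaCl was −2.62, and both passed. For LOC_Os02g57110 and LOC_Os01g14850 alike, the arrays left out were low ones of the reference groups, which favours larger drops.

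LOC_Os03g19670 read 11.76, 11.46 and 11.77 in untreated Tainung 67 and 6.88, 7.11 and 8.95 with NaCl, and in OE 8.78, 8.26 and 6.35 without NaCl and 7.38, 6.76 and 7.01 with it. The untreated OE arrays lay on both sides of the treated ones, and the change was −0.75 ± 0.62 (adjusted p = 0.411, limma). Without replicate 3 of untreated OE, which read 6.35, it was −1.48 and did not pass either. LOC_Os03g47940 read 10.84, 11.41 and 11 in untreated Tainung 67, 6.02, 5.98 and 8.41 with NaCl, 8.38, 8.17 and 6.78 in untreated OE and 6.32, 6.26 and 6.53 in OE with NaCl, and CUST_15525_Rice4x44kGene read within 0.21 of it on every array. All 3 treated OE arrays were below the untreated ones, but the change of −1.4 ± 0.6 did not pass (adjusted p = 0.11, limma), while it was −1.9 and passed with both arrays that stood apart left out. Leaving out the low array of untreated OE favours a larger drop here too. In LOC_Os04g39320 OE read 5.5, 6.22 and 6.77 without NaCl and 5.74, 5.21 and 6.7 with it, a change of −0.28 ± 0.55 (adjusted p = 0.746). LOC_Os03g57780 read 8.12, 9.45 and 7.28 and then 8.46, 8.51 and 7.46 in OE, a change of −0.14 ± 0.54 (adjusted p = 0.878). In both loci the groups of OE overlapped.

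For LOC_Os04g53950 and LOC_Os10g05600 the changes in OE were −0.95 ± 0.73 (adjusted p = 0.375, limma) and −0.91 ± 0.6 (adjusted p = 0.298). LOC_Os10g05600 differed between genotypes at 150 mM NaCl by −1.77 ± 0.6 (adjusted p = 0.111, limma), with OE at 8.01, 8.22 and 6.64 and Tainung 67 at 8.94, 9.17 and 10.06, which did not overlap. Of the probes without a locus, CUST_39337_Rice4x44kGene had the largest mean difference by the rule. It read 9.92, 9.19 and 10.67 in untreated Tainung 67, 6.51, 5.04 and 6.17 with NaCl, 6.51, 5.97 and 6.61 in untreated OE and 5.5, 5.14 and 5.35 in OE with NaCl. OE with NaCl lay below OE without in all arrays, by −1.03 ± 0.41, which did not pass (adjusted p = 0.0906, limma) unless the replicate number or the slide was a block.

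A single member, LOC_Os01g58280, rose with NaCl in OE. It read 7.96, 8.63 and 8.46 in untreated Tainung 67 and 6.9, 7.04 and 6.45 with NaCl, but 5.71, 5.81 and 6.05 in untreated OE and 7.23, 8.14 and 8.14 in OE with NaCl. The treated OE arrays lay above all untreated OE arrays and above all NaCl-treated Tainung 67 arrays, and overlapped with untreated Tainung 67. NaCl changed it in OE by 1.98 ± 0.27 (adjusted p = 0.000729, limma), and this call was kept under every alternative run. OE was higher than Tainung 67 at 150 mM NaCl by 1.04 ± 0.27 (adjusted p = 0.0471, limma), a call that was lost with the slide as a block (0.9 as a fixed and 0.96 as a random block) and without any one of 9 of the 12 arrays, at values from 0.86 to 1.09. The rule chose both reference groups low, untreated OE and NaCl-treated Tainung 67, which favours a rise in both comparisons. The alternatives were run on the same chosen members.

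Among members with a locus, those next to LOC_Os01g58280 in order of the adjusted p for a rise changed little in OE. LOC_Os04g42200 read 6.12, 7 and 5.25 in OE without NaCl and 5.97, 7.03 and 6.22 with it, a change of 0.28 ± 0.38 (adjusted p = 0.634, limma), and LOC_Os04g58840 read 9.31, 9.25 and 8.88 and then 9.43, 9.39 and 9.17, a change of 0.18 ± 0.27 (adjusted p = 0.662). LOC_Os01g64180 and LOC_Os01g54210 each changed by 0.15 (adjusted p = 0.711 and 0.726). In all 4 loci the OE groups overlapped. LOC_Os03g55120 and LOC_Os02g26349 differed between the genotypes at 150 mM NaCl by 0.33 ± 0.24 (adjusted p = 0.465, limma) and 0.04 ± 0.15 (adjusted p = 0.912).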

How the data were processed

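Shoot RNA of 4 groups with 3 arrays each was measured on 12 Agilent rice arrays. The authors deposited the scanner's output, in which Feature Extraction (version 10.7.1.1 per the submitters' processing notes) gives the signal and background of each spot as an intensity. The authors also deposited a table of normalized log2 values, which was used for the rule. It matched log2 processed signals, less a constant per array and each probe's median, within 0.01 for 99.9% of probes, and its column medians ran from −0.088 to 0.064. Arrays were grouped and paired by their titles. One scanner file, of replicate 2 of untreated Tainung 67, gives its processed signals in rounded form.

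Median spot intensities were corrected with limma 3.58.1 (R 4.3.3) by normexp with an offset of 0 and quantile-normalized, leaving out 1417 control spots of each array and outlier spots, and spots of a probe were averaged. After this, 66 probe values were missing. The 37144 of 42477 probes well above background (in at least 50% of their spots) on at least 3 arrays were tested in 1 limma fit (lmFit and eBayes) with a mean for each of the 4 groups, for NaCl in OE and for OE against Tainung 67 at 150 mM NaCl. Calls needed a fold change over 2 and an adjusted p (Benjamini-Hochberg, over all tested probes) under 0.05. The number of arrays limits the precision. The fit was tested on simulated data. The comparisons that chose the members, and the interaction, were not tested.

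Deviations of arrays with the same number from their group means correlated at 0.286, 0.68 and 0.491 for NaCl in OE and at 0.171, 0.336 and 0.196 for the genotypes at 150 mM NaCl. The numbers were therefore taken to pair the arrays, although number 2 cannot be told apart from slide 3.

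The members and lists were chosen with earlier results of these data known. Loci named were, among members with a locus, the 10 with the lowest mean of the 6 differences of the rule and, for both tested comparisons, the 5 with the smallest adjusted p in each direction, with the 3 lowest probes without a locus. Loci named beyond these passed a comparison or lie next to a named locus by number, and were chosen after their values were seen. Loci were taken from the authors' lists of DEGs, by probe or by fold changes that matched within 0.0001 on the log2 scale at exactly 1 probe. Fold changes of those lists were used for this match only and not for results. Lists of genes by function, tissue markers and promoter motifs could not be applied, since the tables used here pair no probe or locus with a product or a sequence, and the level of the overexpressed gene was not analysed here. Alternatives covered background correction, normalization, filters, slide and replicate blocks, averaging of replicates 1 and 3, the methods' t-test and leaving out arrays.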

Additional observations from a re-analysis of the deposited data

Results flagged for a closer look

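In 7 of the 266 members NaCl moved OE up in all 3 pairs of arrays, both in the deposited normalized values and in those normalized here, while it moved Tainung 67 down in all 3, which is the opposite direction in every sample. These are 2.63% of the members. Of all tested probes, NaCl moved OE up in all 3 pairs in 30.4% in the deposited values and in 32.2% in those normalized here. The difference between the genotypes was not tested, because the rule chose the direction in Tainung 67. The rule also chose the untreated OE arrays low, which favours a rise in OE. LOC_Os01g58280 changed in OE by 1.52, 2.33 and 2.08 in the 3 pairs on the log2 scale, and of the 7 only this locus passed the test of the NaCl change in OE (limma, adjusted p = 0.000729). CUST_14951_Rice4x44kGene changed by 0.51, 0.46 and 1.32 (mean 0.76, adjusted p = 0.0234), under the 2-fold limit. LOC_Os04g58840 and the probes CUST_15449_Rice4x44kGene, CUST_24157_Rice4x44kGene, CUST_1003_Rice4x44kGene and CUST_21302_Rice4x44kGene had mean changes of 0.18 to 1.22 with adjusted p from 0.138 to 0.662.

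In 4 members OE lay above Tainung 67 in all 3 pairs at 150 mM NaCl in both sets of values and below it in all 3 at 0 mM NaCl, and this difference was not tested either. In 1 set alone, 7 members did so in the values normalized here (2.63%) and 6 in the deposited ones (2.26%). Of all tested probes, 20.9% and 21.2% lay above 0 in all 3 pairs at 150 mM NaCl in these sets. NaCl-treated Tainung 67 was chosen low by the rule, which favours a higher OE. The 4 members were LOC_Os01g58280 (0.33, 1.09 and 1.69 in the 3 pairs), CUST_14951_Rice4x44kGene (0.17, 0.79 and 0.89), CUST_17440_Rice4x44kGene (0.69, 0.25 and 0.34) and CUST_26301_Rice4x44kGene (0.49, 0.1 and 0.4). Only in LOC_Os01g58280 did the difference at 150 mM NaCl pass (adjusted p = 0.0471, limma), and the adjusted p of the other 3 were 0.116 to 0.382.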

How the results depend on the processing

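The median change of the members by NaCl in OE stayed below 0 under every alternative run, from −0.93 to −0.53, and so did that between genotypes at 150 mM NaCl, from −0.94 to −0.05, where the value nearest to 0 came with the slide as a fixed block. The counts moved more, and percentages in parentheses give the share of all tested probes called in the same setting. The 34 members lowered by NaCl in OE (3.64%) became 9 with replicates 1 and 3 averaged (0.638%) and 14 by the methods' t-test after Benjamini-Hochberg adjustment (2.52%). They became 96 with both arrays that stand apart left out (4.59%), which were chosen after seeing the data. With single arrays left out they became 17 to 58 (2.66% to 4.78%). The 1 raised member (6.18%) became 2 with the processed signals at the 75th percentile (6.66%) and with the deposited normalized values (6.62%). The 20 members lower in OE at 150 mM NaCl (1.42%) became 13 with the slide as a fixed block (1.14%) and 2 with replicates 1 and 3 averaged (0.0485%). By the methods' t-test they became 0 (0.00808%). They became 81 with both arrays left out (3.03%) and 7 to 54 with single arrays left out (0.84% to 3.04%). The 1 higher member (1.93%) became 0 with an offset of 50 (1.5%) and with no filter on dim probes (1.58%). It also became 0 with replicates 1 and 3 averaged (0.151%) and by the methods' t-test (0.0215%). With the slide as a fixed or a random block it became 0 as well (1.12% and 1.48%). With single arrays left out it became 0 to 1 (1.01% to 3.97%). With the replicate block, which follows the pairing of the arrays, the lowered counts were 38 (4.18%) and 27 (1.78%). Of the named loci and probes, the replicate block changed the call of CUST_39337_Rice4x44kGene alone. The number of members by the rule was 482 at a threshold of −0.6, 145 at −1, 460 without the filter on background and 991 on group means, and 336 to 551 with each pair left out. The causes were not tested. Over the named loci and probes, no fold change that passed was reversed, 35 values that passed no longer did, 32 others passed and 1175 kept their side of the threshold. Most of these 1175 were values that did not pass in the main fit either, so their number does not measure how stable the calls were.

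The 3 arrays in a group, of which 2 share a slide, limit all of these values, and genotype was measured within a slide in only 1 pair. With replicates 1 and 3 averaged, each group has 2 values, which also lowers the number of members that can pass.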
